A study of Mus musculus with 6 samples.

Results

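DNA methylation was examined at 10 genes of spermatogonial differentiation, *Kit*, *Stra8*, *Dmrt1*, *Dmrtb1*, *Sohlh1*, *Sohlh2*, *Rarg*, *Rarb*, *Neurog3*, and *Crabp1*, in Space GS cells and Ground GS cells. The genes were chosen by name from the 31751 genes of the deposited table, and every CpG site whose closest transcription start site (TSS) belonged to one of them was taken. Of 1751 such sites, 440 (25.1%) had at least 10 reads in all 6 samples, out of 681804 sites with that coverage in the whole table. Sites within 1000 bp of the TSS are called promoter sites here (164 sites), and the sites farther away are called distal sites (276 sites).

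GS cells are cultured spermatogonia that contain spermatogonial stem cells and progenitors. Both groups came from mice of the transgenic strain C57BL6/Tg14(act-EGFP-OsbY01) on a DBA/2 background, given as the genotype DBA/Tg14(act-EGFP-OsbY01) for every sample, so that the act-EGFP transgene was present in the control cells too. Space GS cells (n = 3) were kept frozen for 6 months in the International Space Station, and Ground GS cells (n = 3) were kept frozen for 6 months on Earth. The study states that the cells for RRBS were thawed and passaged in culture before they were analyzed. The levels are therefore those of cells that survived and grew after thawing. The cells were grown on mouse embryonic fibroblasts with GDNF and FGF2, and the labels give neither the age of the donor mice nor the number of cell lines. Genomic DNA was analyzed by reduced representation bisulfite sequencing (RRBS), in which bisulfite converts unmethylated cytosines and leaves methylated ones, and every read is scored as methylated or not at the CpG sites it covers. The series text calls the 3 samples of a group biological replicates.

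In the testis, spermatogonia leave the stem cell state when retinoic acid binds its nuclear receptors, and differentiating spermatogonia then display the receptor tyrosine kinase KIT and later switch on *Stra8* before meiosis. A set of transcription factors, among them DMRT1, SOHLH1, and SOHLH2, controls the order of these steps. Methylation of CpG-rich promoters is generally associated with silent genes, whereas DNA between genes and within gene bodies is often highly methylated in germ cells that have re-established their methylation.

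The 164 promoter sites were all nearly free of methylation in both groups, and the distal sites were not. Each of the 164 promoter sites had a mean level under 10%, with a mean of 1.87% and a highest value of 7.15%, whereas among all promoter sites (390568) 98.7% were under 10%. Of the 276 distal sites, 148 (53.6%) were under 10%, 25 (9.06%) were between 10% and 90%, and 103 (37.3%) were over 90%. The distal sites of the whole table had 48.8%, 16.5%, and 34.7% in these classes, over 291236 sites. In the tests of Space GS cells against Ground GS cells, 0 promoters, distal regions, clusters, or sites of the 10 genes passed an adjusted p of 0.05 (quasi-binomial test moderated with limma). The same held for the whole table, with 0 of 14361 promoters, 0 of 17203 distal regions, 0 of 50240 clusters, and 0 of 92042 sites. The 0 is thus not particular to these genes. Their counts at an unadjusted p under 0.05 are given with each test.

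**Figure D1:**
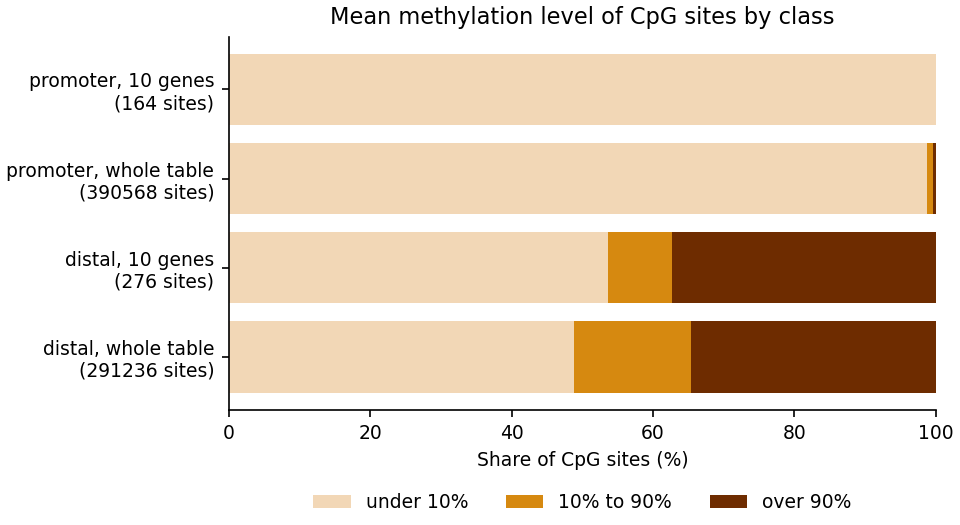
Share of CpG sites (%) with a mean level under 10%, from 10% to 90%, and over 90%, for promoter and distal sites of the 10 genes and of the whole table. All 164 promoter sites of the 10 genes lie under 10%, while the 276 distal sites divide into 53.6%, 9.06%, and 37.3%.

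RRBS reads only part of each gene, and 3 of the 10 promoters were barely covered. The 250 bases upstream of the annotated start are shown for a covered receptor gene (*Kit*), a covered transcription factor gene (*Sohlh2*), and 2 genes with little or no coverage (*Stra8* and *Sohlh1*). The sequences are from RefSeq on GRCm38.p6, 5′ to 3′ on the strand of the gene, with every CG in capitals. The table's sites are on mm39, another build, and were not placed on these sequences.
Kit, chr5:75574737-75574986, + strand: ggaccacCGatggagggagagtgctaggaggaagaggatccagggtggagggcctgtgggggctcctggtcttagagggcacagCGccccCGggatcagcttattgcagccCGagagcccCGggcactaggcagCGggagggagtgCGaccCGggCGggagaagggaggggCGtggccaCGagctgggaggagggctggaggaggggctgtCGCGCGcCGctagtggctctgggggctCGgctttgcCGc
Sohlh2, chr3:55181794-55182043, + strand: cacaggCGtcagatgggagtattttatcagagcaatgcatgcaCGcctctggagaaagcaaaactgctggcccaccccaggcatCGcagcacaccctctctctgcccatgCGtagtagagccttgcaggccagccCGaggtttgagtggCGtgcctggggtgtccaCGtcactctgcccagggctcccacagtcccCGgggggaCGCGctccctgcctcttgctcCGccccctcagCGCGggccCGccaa
Stra8, chr6:34920698-34920947, + strand: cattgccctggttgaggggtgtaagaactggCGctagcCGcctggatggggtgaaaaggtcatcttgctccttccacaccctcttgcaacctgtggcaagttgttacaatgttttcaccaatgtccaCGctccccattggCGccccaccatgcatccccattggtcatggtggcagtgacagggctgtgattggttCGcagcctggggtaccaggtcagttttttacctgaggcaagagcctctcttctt
Sohlh1, chr2:25847249-25847498, - strand: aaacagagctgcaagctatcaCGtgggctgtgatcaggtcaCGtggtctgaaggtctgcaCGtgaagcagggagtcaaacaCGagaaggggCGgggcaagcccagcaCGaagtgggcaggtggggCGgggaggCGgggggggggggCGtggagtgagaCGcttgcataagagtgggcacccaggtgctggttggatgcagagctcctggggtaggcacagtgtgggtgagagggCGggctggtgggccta

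The letters CG occurred 17 times in the *Kit* sequence, 14 times in that of *Sohlh2*, 11 times in that of *Sohlh1*, and 5 times in that of *Stra8*, and the median over 32851 mouse promoters of this length was 6. RRBS fragments are commonly cut with MspI, which recognizes CCGG, a palindrome that contains CG. CCGG was found 3 times in the *Kit* sequence, 1 time in that of *Sohlh2*, and 0 times in those of *Stra8* and *Sohlh1*, whereas 47.1% of the 32851 promoters contained it. *Crabp1*, whose promoter was covered, also had 0 matches in these 250 bases, and *Rarb*, with 0 listed promoter sites, had 1 match. Of the 10 genes, 9 had a promoter sequence in the RefSeq table, with *Dmrt1* as the exception.

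The promoter of *Stra8*, the retinoic acid-induced gene needed for meiotic entry (ENSMUSG00000029848, chr6:34897098 + on mm39), had 4 listed sites, each with 1 read in Ground GS cells 1 and 0 reads in the other samples. All 4 counts were unmethylated, but so few counts do not fix the level, even if they are separate reads. The sites lie 843 to 909 bp downstream, so the counts may come from the same read. The promoter level of *Stra8* was not measurable here. *Sohlh1*, a basic helix-loop-helix factor of early differentiation (ENSMUSG00000059625, chr2:25737260 -), had 10 listed promoter sites, and 1 of them, 46 bp downstream of the TSS, had enough reads. For *Rarb* (ENSMUSG00000017491, chr14:5650540 +), a retinoic acid receptor gene, the table listed 0 promoter sites. The other 7 genes had at least 10 promoter sites each, and 6 of these 7 also had distal sites.

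Among the genes of retinoic acid signaling, *Rarg*, the receptor of spermatogonia that drives differentiation (ENSMUSG00000001288, chr15:102165952 -), had promoter levels of 3.27%, 3.40%, and 1.86% in Space replicates 1 to 3 and 3.29%, 3.85%, and 1.60% in Ground replicates 1 to 3. The ranges of its 19 promoter sites overlapped, with means of 2.84% ± 0.854 and 2.91% ± 1.17 (SD, n = 3) that differed by less than either SD. Its 27 distal sites had 7.23%, 6.80%, and 7.50% in the Space replicates and 5.65%, 6.82%, and 6.58% in the Ground replicates, which also overlapped. Of these 27 distal sites, 25 were under 10%, and 23 of them formed 3 clusters 9623 to 11385 bp downstream of the TSS with means of 0.981% to 3.20% in either group. RefSeq (GRCm38.p6) lists 2 starts of *Rarg* 11022 bases apart, which were not matched to the TSS of the table. A pair of sites 4995 to 5021 bp downstream, between the promoter and these clusters, had 97.0% ± 4.11 in the Space replicates and 98.8% ± 2.14 in the Ground replicates (SD, n = 3).

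*Crabp1*, which encodes a retinoic acid-binding protein of the cytoplasm (ENSMUSG00000032291, chr9:54672032 +), had promoter levels of 6.23%, 0.462%, and 1.74% in the Space replicates and 1.86%, 2.40%, and 1.92% in the Ground replicates over 10 sites. Space GS cells 1 was the highest and Space GS cells 2 the lowest of the 6 samples, so the Ground replicates lay within the Space range. Its 9 distal sites had 86.5%, 83.1%, and 85.2% in the Space replicates and 86.6%, 85.1%, and 87.2% in the Ground replicates, the highest distal level among the 8 genes with at least 3 distal sites. The 8 distal sites over 90% lay 12469 to 12496 bp upstream and 9940 to 11740 bp downstream, and the site at 1040 bp had 1.73%.

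*Rarb*, another retinoic acid receptor gene and itself a known retinoic acid target, was represented by 23 distal sites only. They had 13.2%, 14.3%, and 17.2% in the Space replicates and 23.4%, 18.8%, and 11.4% in the Ground replicates, so the Space replicates lay within the Ground range. A group of 16 sites 353603 to 353793 bp upstream was nearly unmethylated, with 0.785% ± 0.294 and 2.73% ± 2.30 (SD, n = 3). Intermediate levels were found at 2 sites 322797 to 322813 bp upstream (55.5% ± 5.51 and 56.7% ± 11.9) and at 5 sites 94853 to 94926 bp downstream (55.2% ± 3.58 and 54.3% ± 4.84) in Space and Ground GS cells (SD, n = 3). At such distances the closest TSS is only an address, and the data do not tie these sites to *Rarb*.

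For *Stra8*, 12 of the 13 distal sites lay 1042 to 1594 bp downstream of the TSS, just outside the promoter limit. The 13 sites had 6.56%, 2.95%, and 6.02% in the Space replicates and 2.65%, 1.20%, and 2.89% in the Ground replicates. The 3 Space replicates were above the 3 Ground replicates, by 2.93 percentage points on average, with 226 to 381 reads per sample summed over the sites. In a quasi-binomial test on methylated against all reads, the unadjusted p was 0.0267 and the adjusted p 0.898 (moderation by limma, Benjamini-Hochberg over 17203 distal regions). Of all distal regions tested, 9.74% had groups that did not overlap, and of the 8 regions of these genes 2 did, *Stra8* and *Dmrt1*. An unadjusted p under 0.05 was found for 1 of the 8 and for 5.48% of all distal regions. With a coverage minimum of 5 reads the difference of *Stra8* turned to -4.69 percentage points. At 10 neighboring sites from 1042 to 1226 bp the coverage was equal within each sample, and Space GS cells 1 had exactly 1 methylated read of 25 at each of them.

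**Figure D2:**
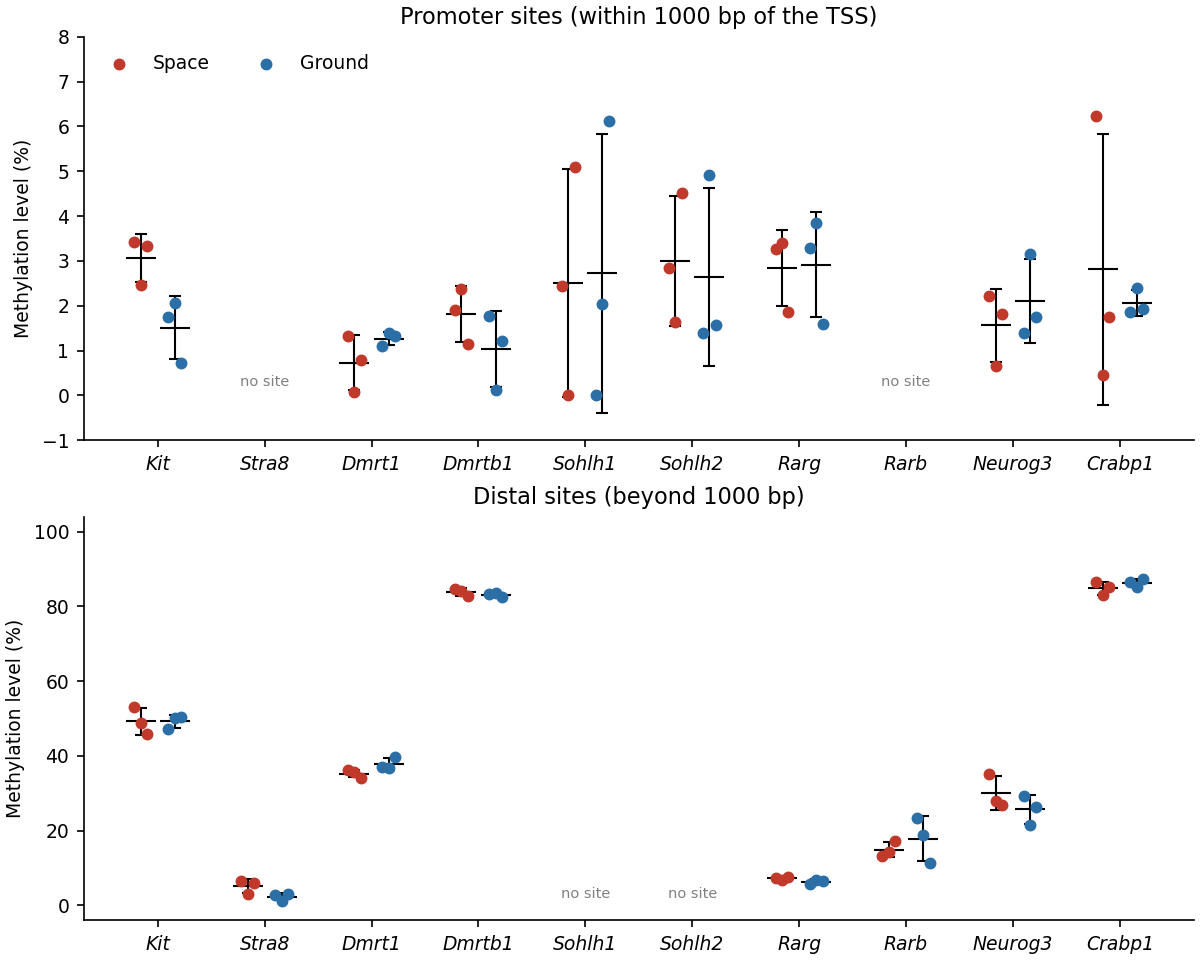
DNA methylation level (%, all reads of a gene's sites) of promoter sites (top, axis to 8%) and distal sites (bottom, axis to 100%) in each Space (red) and Ground (blue) replicate, with the mean and SD (n = 3). Every promoter level is at or below 6.23%, whereas the distal levels run from 1.20% (*Stra8*) to 87.2% (*Crabp1*).

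*Kit*, the receptor tyrosine kinase that marks differentiating spermatogonia (ENSMUSG00000005672, chr5:75735576 +), was the gene whose promoter replicates did not overlap at its well-covered sites. Its 10 promoter sites with 10 or more reads per sample had 3.42%, 2.46%, and 3.33% in the Space replicates and 1.75%, 2.05%, and 0.714% in the Ground replicates. The levels rest on 343 to 450 reads per sample, summed over the sites. Each Space replicate was above each Ground replicate, with means of 3.07% ± 0.531 and 1.505% ± 0.701 (SD, n = 3) and a difference of 1.57 percentage points. Groups that did not overlap were found at 1 of the 7 tested promoters of these genes and at 9.55% of the 14361 promoters of the table, so the count of 1 was near the background. The quasi-binomial test, moderated with limma, gave an unadjusted p of 0.165 and an adjusted p of 0.938, and 0 of the 7 promoters had an unadjusted p under 0.05, against 5.74% in the table. Over all promoter sites with any reads, 82 to 92 per sample, the level was 1.73%, 3.26%, and 6.29% in the Space replicates and 0.870%, 4.61%, and 0.359% in the Ground replicates, so that the groups overlapped there. At the 10 well-covered sites of Space GS cells 1, 12 of 351 reads summed over sites were methylated (95% Wilson interval 1.97% to 5.88%). The whole level thus rests on few methylated reads. The interval takes the summed reads as separate, but 6 of the sites, 324 to 364 bp downstream, had equal coverage within each sample. Such sites can share reads, so the interval may be too narrow.

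The distal sites of *Kit* were mixed. Its 20 distal sites had 53.1%, 48.8%, and 45.7% in the Space replicates and 47.2%, 50.1%, and 50.4% in the Ground replicates, and the group means were both 49.2%. Of these sites, 9 were under 10%, namely 2 sites 61675 to 61755 bp upstream, 4 sites 56347 to 56444 bp upstream, and 3 sites 4046 to 4068 bp downstream. The 10 sites over 90% lay 62959 to 86459 bp upstream and 32607 to 53177 bp downstream. The single site between these classes, 37463 bp upstream, had 37.0%, 31.4%, and 30% in the Space replicates and 25.8%, 25.8%, and 16% in the Ground replicates. These replicates did not overlap, as at 9.07% of the tested sites of the table, at 25 to 40 reads per sample, and the unadjusted p was 0.215 and the adjusted p 0.986 (limma-moderated quasi-binomial test).

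The promoters of the transcription factor genes were low as well. *Dmrt1*, a DM-domain factor that acts in spermatogonia and restrains meiosis (ENSMUSG00000024837, chr19:25482982 +), had the lowest promoter level, with 1.31%, 0.0835%, and 0.788% in the Space replicates and 1.10%, 1.38%, and 1.31% in the Ground replicates over 38 sites. The replicates overlapped, and 6.63% of 14373 gene promoters had a lower mean. Its 55 distal sites had 36.1%, 35.6%, and 34.1% in the Space replicates and 37.1%, 36.7%, and 39.8% in the Ground replicates. The 3 Space replicates were all below the 3 Ground replicates, by 2.60 percentage points on average, with an adjusted p of 0.958 in the limma-moderated quasi-binomial test. Over 9 alternatives this difference ran from -3.16 percentage points (without Ground GS cells 2) to -1.15 (minimum of 20 reads), with 0 changes of sign. It was -1.64 without Ground GS cells 3 and -1.27 with a minimum of 5 reads.

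*Dmrtb1*, a DM-domain factor of the switch from mitosis to meiosis (ENSMUSG00000028610, chr4:107541427 -), combined a low promoter with a highly methylated surrounding. Its 30 promoter sites had 1.90%, 2.38%, and 1.15% in the Space replicates and 1.77%, 0.112%, and 1.22% in the Ground replicates, which overlapped. Its 60 distal sites had 84.7%, 84.1%, and 82.8% in the Space replicates and 83.3%, 83.6%, and 82.6% in the Ground replicates, which overlapped as well. Of these 60 sites, 52 were over 90%, and they began 2720 bp downstream of the TSS. The 4 sites under 10% lay 1914 to 1964 bp upstream, and 1 site 10425 bp downstream had an intermediate level of 52.2% ± 7.86 in the Space replicates and 55.5% ± 7.84 in the Ground replicates (SD, n = 3).

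*Sohlh2*, the partner of SOHLH1 (ENSMUSG00000027794, chr3:55089449 +), was represented by 24 promoter sites and 0 distal sites. Its promoter had 2.83%, 1.63%, and 4.52% in the Space replicates and 1.39%, 4.92%, and 1.58% in the Ground replicates, so that the widest gap lay between replicates of Ground GS cells. The single *Sohlh1* site had 2.44%, 0%, and 5.08% in the Space replicates and 0%, 2.04%, and 6.12% in the Ground replicates. The 2 zeros rest on 45 and 78 reads, with upper 95% Wilson limits of 7.87% and 4.69%, so no difference was detectable at this depth. Such limits and the intervals cover counting error only. With all reads of the 10 listed promoter sites of *Sohlh1*, the levels were 3.29%, 15.4%, and 2.19% in the Space replicates and 0%, 5.83%, and 3.61% in the Ground replicates, from 78 to 173 reads per sample. In Space GS cells 2, 12 of 78 reads summed over sites were methylated. They came from 3 sites 526 to 544 bp downstream with 4 of 7 methylated reads each, which may be the same reads. A pair of shallow sites 4295 and 4469 bp upstream of *Sohlh1* had 95% to 100% methylation in the 6 samples, from 12 to 40 reads.

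*Neurog3*, a basic helix-loop-helix factor of undifferentiated progenitors that are about to differentiate (ENSMUSG00000044312, chr10:61968869 +), had the most sites, with 32 promoter and 69 distal sites. Its promoter had 2.21%, 0.656%, and 1.82% in the Space replicates and 1.39%, 3.16%, and 1.75% in the Ground replicates, which overlapped. Its distal sites had 35.2%, 28.0%, and 26.8% in the Space replicates and 29.2%, 21.5%, and 26.3% in the Ground replicates. The difference was 4.33 percentage points, but the replicates overlapped and the adjusted p was 0.909 (limma-moderated quasi-binomial test). Over 9 alternatives the *Neurog3* distal difference ran from 1.70 (without Space GS cells 1) to 6.10 (without Ground GS cells 1), with 0 changes of sign. It was 2.23 without Ground GS cells 2, 2.83 with a minimum of 20 reads, and 2.09 as the mean of the site levels. A block of 33 sites 22046 to 22362 bp upstream was nearly unmethylated, with 1.07% ± 1.10 and 1.27% ± 0.388 (SD, n = 3), although 11 sites 23987 to 24473 bp upstream had 94.8% ± 2.04 and 94.5% ± 1.80.

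Promoter and distal levels were then compared within each replicate, as the promoter level minus the distal level, at the 6 genes with at least 3 sites of each kind. The mean difference over the 6 samples was -83.2 percentage points (SE 0.837) at *Crabp1*, -82.1 (SE 0.546) at *Dmrtb1*, and -46.9 (SE 1.11) at *Kit*. It was -35.6 (SE 0.590) at *Dmrt1*, -26.0 (SE 1.45) at *Neurog3*, and -3.89 (SE 0.670) at *Rarg*. The promoter was lower than the distal sites at all 6 genes in all 6 samples, and all 6 passed an adjusted p of 0.05 in limma, as did 87.7% of 8422 genes in the table, so the direction is that of genes in general. The adjusted p ranged from 1.08e-11 at *Dmrtb1* to 7.19e-04 at *Rarg* (limma, Benjamini-Hochberg over 8422 genes). At *Rarg* the difference rests on 2 of 27 distal sites, with 97.0% and 98.8% in the Space and Ground replicates. The other 25 were under 10%, and its 3 distal clusters had 0.981% to 3.20%, near the promoter means of 2.84% and 2.91%. The direction without the 2 sites was not tested. The SE and p cover only the spread between samples over the same sites.

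The promoter-distal difference of Space GS cells minus that of Ground GS cells was 2.14 percentage points (SE 1.67) at *Crabp1*, 2.06 (SE 1.18) at *Dmrt1*, and 1.57 (SE 2.23) at *Kit*. It was 0.0195 (SE 1.09) at *Dmrtb1*, -0.901 (SE 1.34) at *Rarg*, and -4.87 (SE 2.89) at *Neurog3*. None of the 6 had an adjusted or unadjusted p under 0.05, with adjusted p from 0.968 to 0.9998 in limma, and 0 of 8422 genes in the table passed, with 433 (5.14%) at an unadjusted p under 0.05.

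The limit of 1000 bp did not mark a step in the level. Just inside the limit, 2 *Crabp1* sites at 973 and 990 bp had 1.15% each and 2 *Neurog3* sites at 909 and 927 bp had 1.39% each. Just outside, 3 *Dmrt1* sites at 1007, 1010, and 1024 bp had 0.439%, 1.32%, and 0.439%. All 31 sites from 1000 to 2000 bp, at 4 genes, were under 10% with a mean of 2.46%. From 2000 to 10000 bp, 25 of 32 sites were under 10% (mean 23.8%), from 10000 to 50000 bp 54 of 97 (mean 36.9%), and beyond 50000 bp 38 of 116 (mean 63.3%). The sites of a bin come from 4 to 8 genes and share reads, so these are descriptions of the 10 genes without a test.

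**Figure D3:**
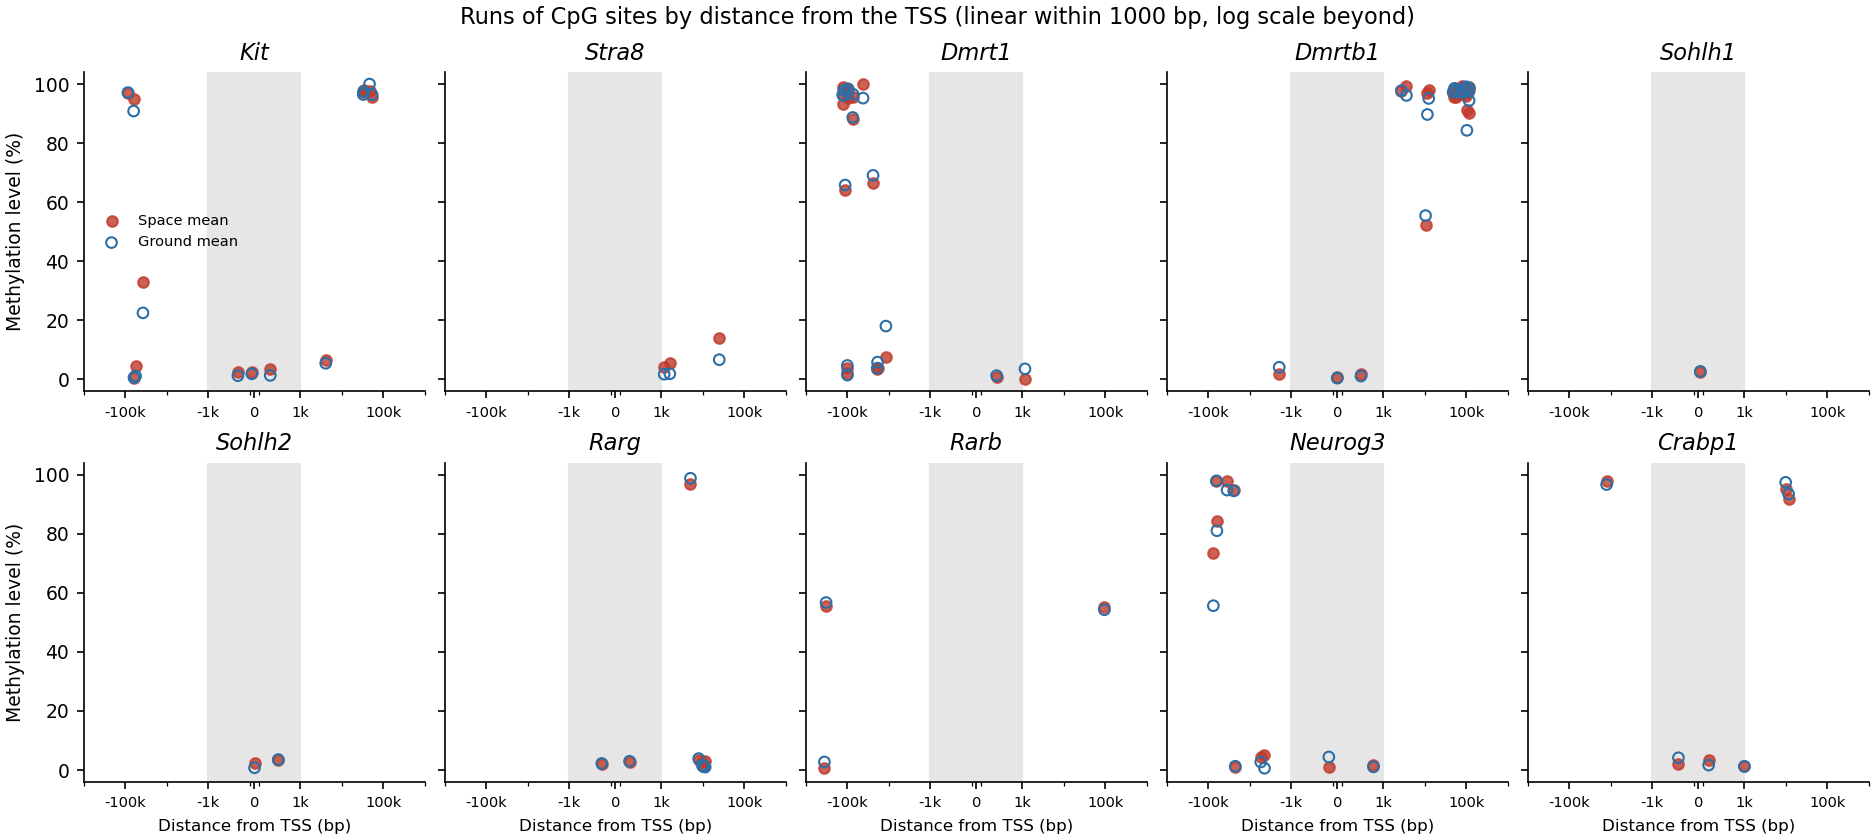
Mean level (%) of each run of neighboring CpG sites against its distance from the TSS in bp (linear within 1000 bp, shaded, and log scale beyond), for each gene, with Space means as filled and Ground means as open circles. Runs in the shaded area lie under 10%, while runs beyond it lie at both ends of the axis, with 19 of 66 under 10% and 35 over 90%.

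By mean distal level, the 8 genes ran from *Stra8* (3.71%) through *Rarg* (6.76%), *Rarb* (16.4%), *Neurog3* (27.8%), *Dmrt1* (36.6%), *Kit* (49.2%), and *Dmrtb1* (83.5%) to *Crabp1* (85.6%). The replicate ranges of neighbors in this order overlapped for *Stra8* and *Rarg*, *Rarb* and *Neurog3*, *Neurog3* and *Dmrt1*, and *Dmrtb1* and *Crabp1*. The median distal level of these 8 genes was 32.2%, and that of 17207 genes in the table was 66.1%. The distances read differed between the genes, with 12 of 13 distal sites of *Stra8* within 2000 bp, whereas every distal site of *Rarb* was farther than 50000 bp away. The 7 promoters with at least 3 sites ran from 0.996% at *Dmrt1* to 2.88% at *Rarg*, with a median of 2.29% against 1.82% for all promoters.

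Neighboring sites often lie on the same reads, so the 440 sites were joined into runs in which sites were no more than 100 bp apart. This gave 82 runs, and 43 of them had at least 3 sites and are called clusters. In 11 of the 43 clusters every site had the same coverage within each sample, so their sites are not separate measurements. Of the 43 clusters, 5 (11.6%) had an unadjusted p under 0.05, against 6.02% of 50240 clusters in the table. An adjusted p under 0.05 was found for 0 of the 43 and 0 of the 50240, with a smallest adjusted p of 0.828 among the 43 (limma-moderated quasi-binomial test). The replicates of the groups did not overlap at 6 clusters (13.95%), against 9.19% in the table. Of these, 2 had higher levels in the Space replicates (5.10% in the table) and 4 had lower levels (4.09% in the table). The mean levels of all 43 clusters differed by less than 20 percentage points, a limit passed by 0.0657% of the clusters in the table.

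**Figure D4:**
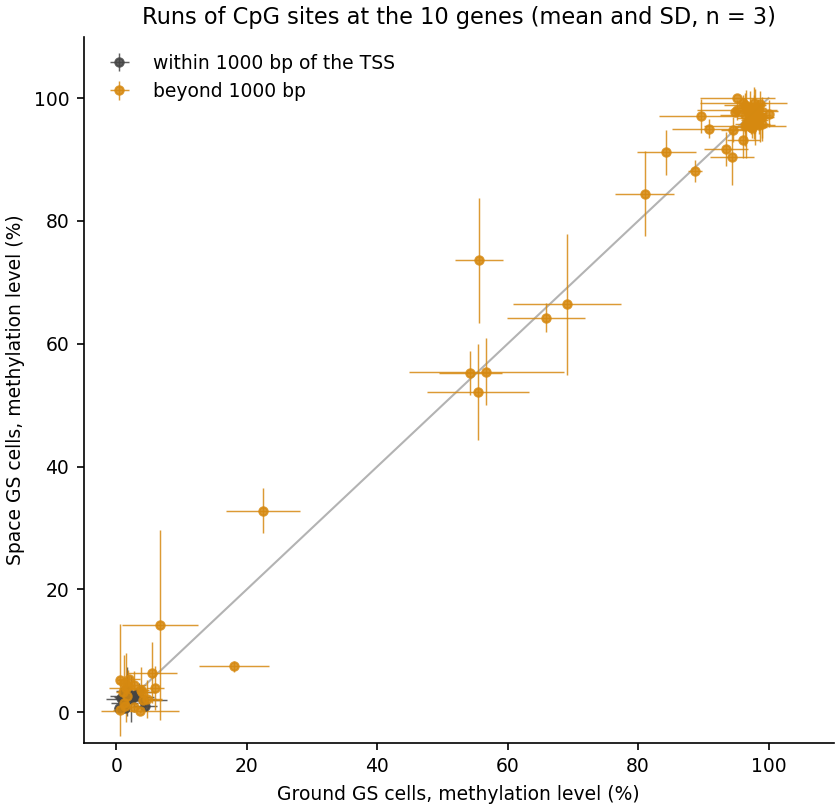
Mean level (%) of the 82 runs of CpG sites at the 10 genes in the Ground replicates (x axis) and the Space replicates (y axis), with SDs over 3 replicates and the line of equal levels. Promoter runs (dark) sit below 10% in both groups, and the point farthest from the line is the *Neurog3* cluster with 55.6% in the Ground replicates and 73.6% in the Space replicates.

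The widest difference among the clusters was found 74960 to 75053 bp upstream of *Neurog3* (chr10:61893816-61893909, 5 sites). It had 79.8%, 79.2%, and 61.9% in the Space replicates and 59.8%, 54.0%, and 53.1% in the Ground replicates. Space GS cells 3, with 61.9%, was the Space replicate nearest to the Ground range, and the difference of the means was 17.99 percentage points, or 14.9 to 23.9 when any 1 replicate was dropped. The unadjusted p was 0.00678 and the adjusted p 0.828 (limma-moderated quasi-binomial test), at 14 to 34 reads per site. The sites 75053 and 75051 bp upstream had equal coverage within each sample, and so had those at 75019, 75007, and 74960 bp. The 5 sites are therefore not separate measurements.

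A cluster 11592 to 11697 bp upstream of *Dmrt1* (chr19:25471285-25471390, 7 sites) had the smallest p of the 43. It had 6.49%, 8.40%, and 7.43% in the Space replicates and 17.3%, 13.1%, and 23.8% in the Ground replicates. The Ground replicates were all higher, and the difference was -10.6 percentage points, or -13.1 to -7.75 with each replicate left out. Its unadjusted p was 0.00521 and its adjusted p 0.828 (limma-moderated quasi-binomial test). All 7 sites had the same 15 to 25 reads within a sample.

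Within the promoter of *Neurog3*, the 14 sites 81 to 283 bp upstream of the TSS (chr10:61968586-61968788) had 1.96%, 0.974%, and 0.281% in the Space replicates and 3.38%, 6.57%, and 3.28% in the Ground replicates. The Space replicates were all lower, with a difference of -3.34 percentage points, an unadjusted p of 0.0156 and an adjusted p of 0.828 (limma-moderated quasi-binomial test). The other 18 promoter sites, 644 to 927 bp downstream, had 2.33%, 0.494%, and 2.51% in the Space replicates and 0.501%, 1.65%, and 1.07% in the Ground replicates, which overlapped. A promoter limited to 500 bp therefore gave a difference of -3.34 percentage points at *Neurog3*, against -0.538 with 1000 bp.

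The other 3 clusters without overlap differed by 2.18 to 3.17 percentage points. A cluster 34913 to 35102 bp upstream of *Neurog3* (6 sites) had 97.7% ± 0.401 in the Space replicates and 94.8% ± 0.360 in the Ground replicates. At *Dmrtb1*, 6 sites 96004 to 96130 bp downstream had 95.8% ± 2.78 and 98.99% ± 0.875, and 4 sites 1914 to 1964 bp upstream had 1.94% ± 0.413 and 4.13% ± 2.89 (SD, n = 3 for each). The first of these *Dmrtb1* differences was -3.17 percentage points, and -1.62 without Space GS cells 1. At the second, Ground GS cells 1 had 7.46% and the other 5 samples 1.52% to 2.56%, and without Ground GS cells 1 the difference was -0.515 percentage points.

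The 5 clusters with an unadjusted p under 0.05 included 2 whose replicates overlapped, both at *Dmrt1*. The 3 sites 41360 to 41434 bp upstream had 100% in each Space replicate and 100%, 88.9%, and 96.8% in the Ground replicates. In Ground GS cells 2 and 3, 40 of 45 and 61 of 63 reads were methylated. At the site 41360 bp upstream alone the counts were 10 of 15 and 19 of 21. All unmethylated reads of this cluster thus lay at that site, which also had the smallest p of the single sites. The 14 sites 1007 to 1304 bp downstream had 0.388%, 0%, and 0% in the Space replicates and 0.304%, 0%, and 10.5% in the Ground replicates, so that this difference came from Ground GS cells 3.

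**Figure D5:**
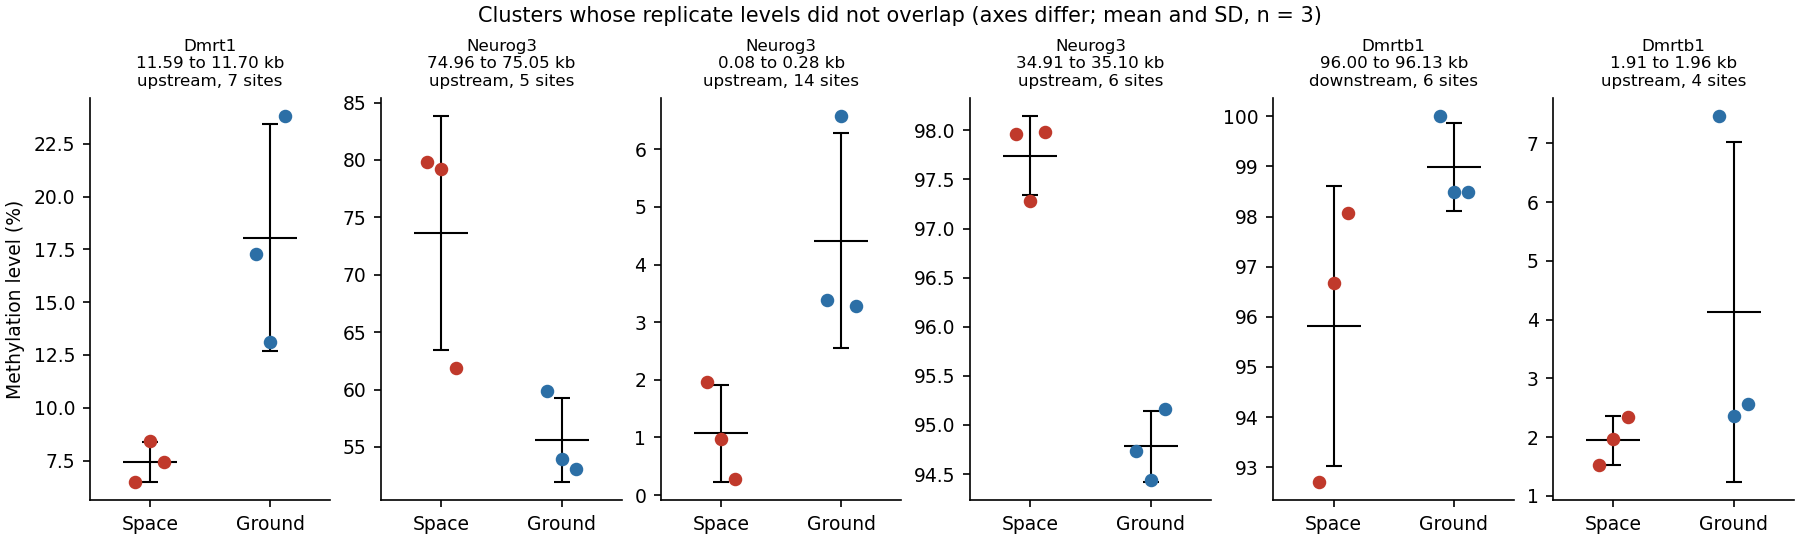
Level (%) of the 6 clusters whose Space (red) and Ground (blue) replicates did not overlap, with the mean and SD (n = 3) and a separate axis range for each panel that does not start at 0. The difference of the means is 17.99 percentage points at the *Neurog3* cluster 74960 to 75053 bp upstream and -10.6 at the *Dmrt1* cluster, and it runs from -3.34 to 2.96 in the other 4 panels.

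Single sites were tested where the mean level was 5% to 95%, which held for 55 sites in 8 of the genes. Of these, 5 (9.09%) had an unadjusted p under 0.05, against 5.25% of 92042 sites in the table. An adjusted p under 0.05 was found for 0 of the 55 and 0 of the 92042, with a smallest adjusted p of 0.919 among the 55 (limma-moderated quasi-binomial test). The groups did not overlap at 9 sites (16.4%, against 9.07% in the table). All 5 of these with lower Space levels lay in the *Dmrt1* cluster 11592 to 11697 bp upstream, whose sites had equal coverage. The *Neurog3* sites 75019 and 75007 bp upstream, also among the 9, had equal coverage too. The 9 sites are therefore not separate measurements. At 2 sites the means differed by more than 20 percentage points (1.45% in the table). Both of these sites belonged to the *Neurog3* cluster with the widest difference, where the site 75019 bp upstream had 91.3%, 71.4%, and 73.1% in the Space replicates and 61.5%, 53.3%, and 58.8% in the Ground replicates. The site 74960 bp upstream had 82.6%, 71.4%, and 53.8% in the Space replicates and 57.7%, 46.7%, and 41.2% in the Ground replicates, so that here the replicates overlapped.

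The site with the smallest p was 41360 bp upstream of *Dmrt1*, with 100% in each Space replicate and 100%, 66.7%, and 90.5% in the Ground replicates. Ground GS cells 1 equaled the Space replicates, and the low value rests on 15 reads of Ground GS cells 2. A site 103264 bp downstream of *Dmrtb1* had 94.7%, 100%, and 96.6% in the Space replicates and 89.3%, 91.3%, and 76.5% in the Ground replicates, and these did not overlap. The fifth was the site 11687 bp upstream of *Dmrt1*, in the cluster described above, with 13.6%, 5.88%, and 0% in the Space replicates and 15.8%, 16.7%, and 33.3% in the Ground replicates. The unadjusted p of these 5 sites ranged from 0.00609 to 0.0431 and the adjusted p from 0.919 to 0.940 (limma-moderated quasi-binomial test).

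Other genes of the same pathways were taken from lists, which were chosen with earlier results of these data known. Of 20 further genes of the retinoic acid pathway, 13 had a testable promoter, and 12 of these were under 10% with a median of 1.71%. The exception was *Cyp26c1*, which encodes an enzyme that degrades retinoic acid, with 41.2% ± 4.92 in the Space replicates and 44.6% ± 7.09 in the Ground replicates (SD, n = 3), followed by *Dhrs3*, a retinal reductase gene, with a mean of 3.62%. Of 15 genes of KIT signaling and differentiating spermatogonia, 11 promoters were testable and all 11 were under 10% (median 1.40%), and the highest were those of *Rhox13* (4.44%) and *Kitl*, the gene of the KIT ligand (2.32%). Of 15 genes of stem-state spermatogonia, 13 promoters were testable and all 13 were under 10% (median 1.88%), led by *Pou3f1* (2.69%) and *Pax7* (2.65%). In these 3 lists, 0 promoters passed an adjusted or an unadjusted p of 0.05, against 5.74% at the unadjusted threshold in the table, in the limma-moderated quasi-binomial test. For distal regions 0 passed an adjusted p, and 2 of 13, 0 of 11, and 1 of 14 had an unadjusted p under 0.05, against 5.48% of all distal regions. Promoters under 10% were found for genes of the stem state and of differentiation alike, and they made up 95.3% of the 14373 promoters in the table.

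The labelled cell type was checked by germ cell genes whose promoters are methylated in somatic cells. Of 15 such genes, among them *Dazl*, *Ddx4*, and *Sycp3*, 12 had a testable promoter and all 12 were under 10%, with a median of 2.51% and the highest levels at *Tex19.1* (7.57%) and *Hormad1* (3.68%). Their levels summed to 32.1 to 43.6 in the Space replicates and 20.02 to 49.3 in the Ground replicates. Of 8 fibroblast genes, 2 had a testable promoter, *Twist1* with 1.27% and *Vim* with 1.24%. *Twist1* was the 1 gene of the 5 lists whose promoter had an unadjusted p under 0.05, with an adjusted p of 0.853 in the limma-moderated quasi-binomial test. Among distal regions, 1 of 6 for the germ cell genes and 1 of 8 for the fibroblast genes had an unadjusted p under 0.05, against 5.48% of all distal regions, and 0 an adjusted one. The part of feeder fibroblasts in the differences at the 10 genes was not tested.

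The 6 samples had 28535973 to 33743845 reads summed over all CpG sites and a median coverage of 27 to 32 reads at the sites that met the minimum of 10 reads. At the 440 sites of the 10 genes the median was 26 reads and the highest was 99. Pairs of samples were compared over all sites of the table with a mean level of 5% to 95%. The chi-square per degree of freedom was 1.30 to 1.44 within groups and 1.30 to 1.44 between them. Every pair thus differed by more than the sampling of separate reads would give. Whether the reads are separate molecules is not known, as removal of copied reads is not given.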

How the data were processed

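RRBS of GS cells was analyzed in 3 Space and 3 Ground samples, grouped by their titles. The deposited table, which covers the 6 samples, gives coverage as a count of reads per CpG site, the level as a percent of methylated reads, and the closest TSS with its gene and distance. The submitters' processing notes name Trim Galore, Bismark 0.24.2, methylKit, and the build mm39, without settings. Exons and introns of mm39 were not used here. Removal of copied reads is not given in the sources used here, so reads may not be separate molecules.

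The product of coverage and percent gave the methylated reads (within 0.000266 of a whole read). Sites needed 10 reads in all 6 samples. Levels were taken from reads summed over sites, so a read that covers several sites was counted at each of them. Space and Ground were compared by a two-sided quasi-binomial test on methylated against all reads, with the Pearson dispersion between replicates moderated by limma 3.58.1 (R 4.3.3) along the mean coverage, and Benjamini-Hochberg adjustment over all features of the table at 0.05. Promoters and distal regions needed 3 sites, and those with 0 methylated reads in all samples were not tested, which left 14361 of 14373 promoters and 17203 of 17207 distal regions. The promoter-distal difference was tested with limma. Alternatives included edgeR 4.0.16. The tests were tested on simulated data, after which the trend along coverage was added. Tables and figures were made with pandas 2.3.3 and matplotlib 3.10.9.

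All 10 genes and the 5 sites with the smallest p were named, with 2 genes per list, those with the highest promoter level. The other genes and clusters named were chosen after their values were seen. The 10 genes, the lists, and the tests were chosen with earlier results of these data known. Same-numbered Space and Ground samples carry consecutive numbers in their descriptions. Their deviations from the group means correlated by 0.00518 to 0.0662, against -0.0644 to 0.0233 for the other pairs of a Space and a Ground sample. Such small values do not settle whether the samples were handled as pairs. The main tests did not pair them, and the alternative with a replicate block did.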

Additional observations from a re-analysis of the deposited data

How the results depend on the processing

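No promoter, distal region, cluster, or site of the 10 genes was called between Space and Ground GS cells under any alternative run, with a smallest adjusted p of 0.419 for a site and 0.428 for a cluster (0.705 for a promoter and 0.614 for a distal region). The alternatives were coverage minimums of 5 and 20 reads, each replicate left out, the replicate block, edgeR, limma on log2 ratios, other promoter and cluster limits, and, chosen after seeing the data, no trend along coverage. In the whole table the count of called sites was 0, and 0 to 2 with each replicate left out (2 when Ground replicate 1 was left out, 1 when Space replicate 3 was). The count of called promoters was 0, but 1 with a coverage minimum of 5 reads, 1 with a limit of 500 bp, and 0 to 1 with each replicate left out (1 without Space replicate 2 and 1 without Space replicate 3). At an unadjusted p under 0.05, the counts ran from 1560 to 50827 sites (the last with no filter on the level), 572 to 1050 promoters, 547 to 1319 distal regions, and 1986 to 4474 clusters. The 6 genes passed the test of the mean promoter-distal difference in every setting, and over all genes 7588 passed, or 3923 with a minimum of 20 reads, which left 4793 genes to test. With the replicate block, which pairs equal numbers, 0 features were called in each test of Space against Ground, and 7558 genes passed for the mean promoter-distal difference. Of 148 alternative values of the promoter and distal differences of the 10 genes, 145 moved by less than 1 SD, the larger of the group SDs. Leaving out 1 of 3 replicates cannot move a difference that far, so those values could not fail this rule. The 3 larger moves were at *Stra8* (distal, minimum of 5 reads), *Dmrtb1* (distal, mean of site levels), and *Neurog3* (promoter within 500 bp). Of the 148 values, 19 changed sign, at *Kit* (distal, 7 of 9), *Rarg* (promoter, 5 of 11), *Sohlh2* (promoter, 4 of 11), and 1 each for *Stra8* and *Dmrtb1* (distal) and *Crabp1* (promoter). None of these differences was called, and the cause of the sign changes was not tested. At 10 reads 1 read moves a site by 10 percentage points, which limits single sites most.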

Other observations

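At 4 of the 25 clusters of the 10 genes with at least 5 samples under 10%, a single library stood more than 5 percentage points above the other samples. These 4 clusters were chosen after their values were seen. The share of such clusters in the whole table was not computed, so it is not known whether 4 of 25 is unusual. A cluster of 14 sites 1007 to 1304 bp downstream of the *Dmrt1* TSS had 10.5% in Ground GS cells 3 (34 of 325 reads, summed over sites) and at most 0.388% in the other 5 samples. In Ground GS cells 3, each of the 14 sites had 1 to 3 methylated reads of 19 to 38. A cluster of 9 sites 4322 to 4442 bp upstream of *Neurog3* had 15.7% in Space GS cells 1 (17 of 108 reads) and at most 1.17% in the others, with 1 or 2 methylated reads of 12 at every site.

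Space GS cells 1 was also the highest library at 6 sites 185 to 269 bp downstream of *Crabp1*, with 7.89% against at most 2.17%, and this cluster lies in the promoter whose Space replicates were most spread. At 3 sites 98817 to 98850 bp upstream of *Dmrt1*, Space GS cells 1 had 10.3% (3 methylated of 29 reads at each site) against at most 4.40%. At all 4 clusters every site of the cluster had methylated reads in the highest library. The table holds no single reads, so how many molecules lie behind these counts was not tested.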
